A study of Homo sapiens with 6 samples.

Results

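The genes described here are the G1 cyclins and the enzymes that work with them, 10 genes of the 60616 in the deposited tables: CCND1, CCND2, CCND3, CCNE1, CCNE2, CDK2, CDK4, CDK6, CDC25A and CCNG1. They were chosen by name for their role in the cell cycle, with earlier results of these data known, and all 10 symbols matched a gene identifier. RNA was sequenced from the human cell line 12Z, which derives from an endometriosis lesion (tissue resembling the uterine lining that grows elsewhere) and serves to study the epithelial side of that disease. In 3 libraries the cells had received an extract of frankincense, a resin of Boswellia trees. It was given in DMSO for 12 h at 70 ug/mL, and the 3 vehicle libraries came from cells given DMSO, also for 12 h. Both groups are wild type by their labels and grew in medium with 10% charcoal-stripped serum, which holds little steroid hormone. The line is known to have been immortalized with the large T antigen of a simian polyomavirus, a protein that binds retinoblastoma proteins and p53, and both groups share it.

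In mammalian cells, D-type cyclins are made in response to growth signals and activate CDK4 and CDK6, which phosphorylate the retinoblastoma protein. This frees E2F transcription factors, which raise the E-type cyclins. Cyclin E with CDK2 then completes the passage into S phase, and the phosphatase CDC25A removes the inhibitory phosphates that hold CDK2 and CDK4 back. Cyclin G1 is a different case, a p53 target that recruits a phosphatase and does not drive the G1 kinases in the usual way.

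The libraries held 22615150 to 27615196 expected counts, which are estimated reads per gene. The labels do not say that replicates came from separate cultures, so p-values speak of the spread among these libraries alone, and that spread may be technical. Frankincense replicate 3 stood apart: a chi-square per degree of freedom between libraries of a group was 13.8 and 11.9 between it and the other treated libraries, 4.08 between those, and 3.82 to 4.41 among vehicle libraries. TPM is a transcript level corrected for length and scaled to one total per library. Of 9 epithelial marker genes, 8 had a group mean above 1 TPM in both groups. CDH1, E-cadherin, was the exception, at 0 to 0.06 TPM with frankincense and 0.07 to 0.23 TPM with vehicle. The 9 summed to 1383 to 1437 TPM with frankincense and 1609 to 1645 TPM with vehicle. All 10 stromal markers were above 1 TPM, and their summed level was 3220 to 3471 TPM with frankincense and 4955 to 5108 TPM with vehicle. Endothelial markers summed to 0.05 to 0.26 TPM with frankincense and 0.1 to 0.27 TPM with vehicle, with CDH5, VE-cadherin, at 0 in all 6 libraries. The 4 mesothelial markers summed to 36.1 to 43.8 TPM with frankincense and 34 to 36.6 TPM with vehicle, and 2 of them were above 1 TPM in both groups. The 4 smooth muscle markers summed to 1.26 to 1.64 TPM with frankincense and 2.05 to 2.68 TPM with vehicle. The 5 immune markers summed to 34.6 to 63.8 TPM with frankincense and 28.3 to 31.2 TPM with vehicle. Nearly all of this was CD68, a macrophage marker that other cells also express, at 34.45, 40.66 and 63.6 TPM with frankincense and 28.57, 28.15 and 30.78 TPM with vehicle, while CD3E, a marker of T cells, was at 0. The part of these marker levels in the results was not tested. In a bulk sample, fewer cells in a cycle phase and less RNA per cell cannot be told apart.

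Within the D-type cyclins, the E-type cyclins and the CDK4 and CDK6 pair, the mRNA was unevenly shared. CCND3 was nearly the only D-type cyclin mRNA, CDK4 outweighed CDK6, and CCNE2 outweighed CCNE1. CCND1, the D-type cyclin most often studied in epithelial cells, was close to the detection limit, and CCND2 had no reads. After frankincense extract, the mRNAs of CCND3, CCNE2 and CDK2 were lower, those of CDK4 and CDC25A were higher, and CDK6 did not pass the test. CCND1 and CCNE1 also passed it, CCND1 higher and CCNE1 lower, but on few reads and not under every setting, and the fall of CCNG1 was lost on the TPM scale.

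**Figure D1:**
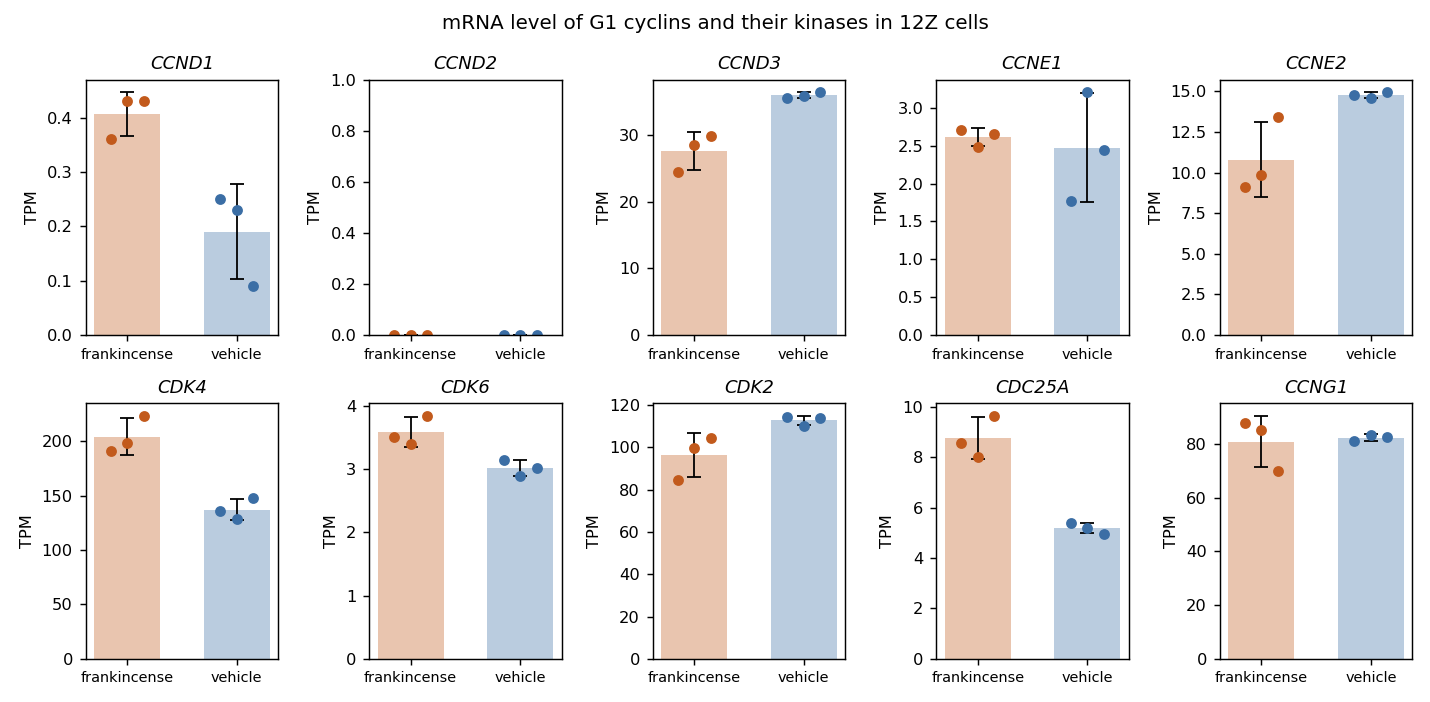
mRNA level in TPM of each of the 10 genes, 1 panel per gene with its own scale, for 3 frankincense and 3 vehicle libraries; points are libraries, bars are means and error bars are SD. CDK4 stands highest at 204 TPM with frankincense and 137 TPM with vehicle, and CCND2 is at 0 in all 6 libraries.

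The order of levels, compared per length in TPM, was the same in both groups. CDK4, the main kinase partner of D-type cyclins, came first at 204 ± 17.1 TPM with frankincense and 137 ± 9.7 TPM with vehicle (SD, n = 3 each here and in the following TPM values). CDK2, the kinase of cyclin E, followed at 96.3 ± 10.3 TPM with frankincense and 113 ± 2.22 TPM with vehicle. Next was CCNG1 at 80.9 ± 9.66 TPM with frankincense and 82.3 ± 1.29 TPM with vehicle. CDK2 and CCNG1 overlapped in the frankincense libraries, where single values ran from 84.76 to 104.61 TPM for CDK2 and from 69.89 to 87.84 TPM for CCNG1, and were separate in the vehicle libraries. The middle of the order was held by CCND3 at 27.6 ± 2.84 TPM with frankincense and 35.9 ± 0.433 TPM with vehicle. CCNE2 stood at 10.8 ± 2.3 TPM with frankincense and 14.8 ± 0.18 TPM with vehicle. CDC25A had 8.75 ± 0.837 TPM with frankincense and 5.19 ± 0.211 TPM with vehicle. CCNE2 and CDC25A overlapped in the frankincense libraries and were separate in the vehicle libraries. The low end was CDK6 at 3.59 ± 0.235 TPM with frankincense and 3.02 ± 0.12 TPM with vehicle, then CCNE1 at 2.61 ± 0.119 TPM with frankincense and 2.47 ± 0.721 TPM with vehicle. CDK6 and CCNE1 were separate in the frankincense libraries and overlapped in the vehicle libraries. CCND1 came after them at 0.407 ± 0.0404 TPM with frankincense and 0.19 ± 0.0872 TPM with vehicle.

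Of the 10 genes, 9 passed the filter on low counts, and CCND2 did not. CCND1 passed it through the frankincense libraries, where its level was higher. It is included in every count and median over the 9 genes below, among them the 3 higher and the 8 that did not overlap. In the quasi-likelihood test of edgeR, with p-values adjusted by Benjamini and Hochberg's method over 16719 genes, 8 of the 9 were called at adjusted p under 0.05, 3 higher and 5 lower. Among all tested genes 62.9% were called, 31.9% higher and 31% lower, so a called gene is no rarity in these data. The 8 called genes had TMM-scaled CPM (counts relative to library size) that did not overlap between groups, which was also true of 67.5% of all tested genes. In TPM 7 of the 9 did not overlap, against 65.2% of all tested genes. The median log2 fold change was -0.26 over the 9 genes and -0.0016 over all tested genes. The TPM scale moved the median of all tested genes to 0.20, or 0.053 without mitochondrial genes, which took 9.5% to 11% of counts with frankincense and 14% to 14.7% with vehicle, and changes are given on the count scale unless TPM is named. With limma on log2(TPM + 1), 3 of the 9 were called higher and 3 lower, where 59.1% of all tested genes were called, 44.2% higher and 14.9% lower. On that scale CCNE1 and CCNG1 were no longer called.

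**Figure D2:**
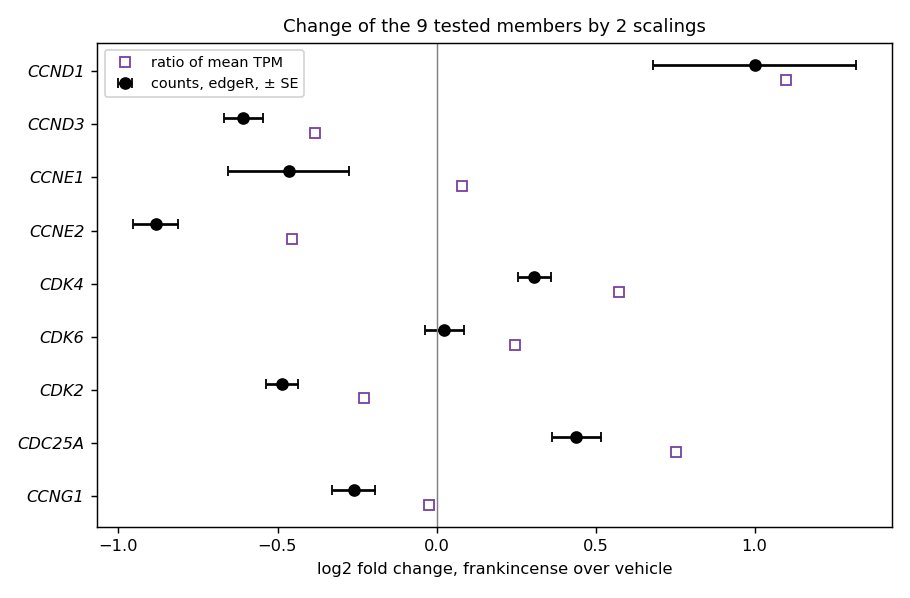
Log2 fold change, frankincense over vehicle, of the 9 tested genes, from counts by edgeR with its SE (filled circles) and as the log2 ratio of mean TPM (open squares). The TPM ratio lies to the right of the count value for every gene; CCNE1 is at -0.47 from counts and 0.08 from TPM.

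The D-type cyclins were represented by CCND3 (ENSG00000112576, GRCh38 chromosome 6, 41934933 to 42050357), a cyclin best known for its part in the proliferation of blood cells that many other cells also use. Its TMM-scaled CPM was 32.43, 36.94 and 34.25 in the frankincense libraries, against 51.46, 53.69 and 52.6 CPM in the vehicle libraries. The groups were far apart and no library was close to the other group. The log2 fold change was -0.61 ± 0.061 (SE), 1.52-fold lower, with an edgeR adjusted p of 7.6e-07. It was called under all 17 alternatives, with count-based values from -0.65 to -0.53 and adjusted p from 6e-19 to 0.0034. On the log2(TPM + 1) scale the change was -0.38. CCND3 supplied 98.5% ± 0.0324 of the TPM of the 3 D-type cyclins with frankincense and 99.5% ± 0.245 with vehicle. Their summed level was 28 ± 2.88 TPM with frankincense and 36.1 ± 0.347 TPM with vehicle.

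CCND1 (ENSG00000110092, chromosome 11, 69641087 to 69654474) encodes cyclin D1, the D-type cyclin that mitogen signals induce in many epithelial cells. It had 27.26, 18.88 and 23.73 expected counts in the frankincense libraries, against 11.43, 16.29 and 7.56 in the vehicle libraries. The groups did not overlap, but the highest vehicle library and the lowest frankincense library were only a few reads apart. Fractions in these counts show that some of its reads also fitted other transcripts and were divided between genes, which also holds for part of the reads of CCNE2 and CDK4. Its vehicle level exceeded that of only 1.75% of the tested genes, and it passed the filter through the frankincense libraries, as 3 of these and 2 of the vehicle libraries reached the required 0.411 CPM. The log2 fold change was 1.0 ± 0.32, with an edgeR adjusted p of 0.013. The call was lost without frankincense replicate 1 (edgeR adjusted p = 0.0521), without vehicle replicate 3 (0.0649) in DESeq2 (0.0897) and with limma on TPM without mitochondrial genes (0.0761), within a range of 0.0086 to 0.09 over 16 alternatives. CCND1 made up 1.45% ± 0.0324 of D-type cyclin TPM with frankincense and 0.527% ± 0.245 with vehicle.

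CCND2 (ENSG00000118971, chromosome 12, 4273772 to 4305350), cyclin D2, had 0 counts in all 6 libraries. A count of 0 allows up to 3 counts, which is 0.0387 to 0.0447 TPM in the frankincense libraries and 0.0317 to 0.0394 TPM in the vehicle libraries. This limit covers counting error only. CCND2 was not tested, and no fold change can be given.

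The 3 genes whose log2 CPM, centred over the 6 libraries, lay closest to that of CCND1 among 16718 others were PDF, NALT1 and GPR155-DT, at distances of 0.11, 0.13 and 0.13. Their log2 fold changes were 0.63, 0.57 and 1.11. The measure adds 0.5 CPM, close to CCND1's own level, which makes its change appear smaller in that comparison.

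CCNE2 carried most of the E-type cyclin mRNA. It encodes cyclin E2 (ENSG00000175305), which like cyclin E1 activates CDK2. TMM-scaled CPM of CCNE2 were 13.63, 13.91 and 14.11 in the frankincense libraries, against 24.62, 25.76 and 26.36 in the vehicle libraries. The replicates were tight and the groups well separated. CCNE2 fell 1.84-fold, a log2 fold change of -0.88 ± 0.070 with an edgeR adjusted p of 5.4e-08, and this was the largest fall among the 9 tested genes. The size of its change exceeded that of 83.8% of all tested genes. It was called under all 17 alternatives, with adjusted p from 6.9e-25 to 0.013. On the TPM scale the fall was smaller, at 9.1, 9.87 and 13.41 TPM with frankincense, against 14.8, 14.6 and 14.96 TPM with vehicle. Frankincense replicate 3 was the high value there, and RSEM gave CCNE2 a mean transcript length of 1747 bases in that library, against 2109 to 2207 bases in the other treated libraries and 2162 to 2296 bases with vehicle. CCNE2's nearest genes in pattern were FURIN, a protease of the secretory pathway, ZNF710-AS1 and ARL6IP1, at distances of 0.057 to 0.063. The sources do not say whether libraries kept strand, so reads of the antisense gene ZNF710-AS1 cannot be told apart from those of the gene it overlaps.

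CCNE1 (ENSG00000105173, chromosome 19, 29811898 to 29824308) encodes cyclin E1 and had few reads. Its expected counts were 53, 58 and 59 in the frankincense libraries, against 54, 103 and 82 in the vehicle libraries. After TMM scaling these became 2.08, 2.42 and 2.42 CPM with frankincense and 2.44, 3.85 and 3.2 CPM with vehicle, so that the lowest vehicle library nearly touched the treated ones. The log2 fold change was -0.47 ± 0.19 (edgeR adjusted p = 0.046), and the range over 16 alternatives was 0.014 to 0.79, with 5 of them calling it. Leaving out vehicle replicate 2 or 3 or frankincense replicate 1 or 2 ended the call, with edgeR adjusted p of 0.227, 0.102, 0.124 and 0.0726. Over the 6 fits that leave out a library the log2 fold change ran from -0.62 to -0.30, the smallest without vehicle replicate 2. In TPM the sign turned, to 0.08 on the log2(TPM + 1) scale (limma adjusted p = 0.69). The mean transcript length that RSEM assigned to CCNE1 was 1422 ± 182 bases with frankincense and 1715 ± 129 bases with vehicle (SD, n = 3), and these did not overlap. CCNE1 contributed 19.8% ± 3.23 of E-type cyclin TPM with frankincense and 14.2% ± 3.68 with vehicle.

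CDK4 (ENSG00000135446, chromosome 12, 57747727 to 57756013) was the most abundant of these mRNAs and rose. Its CPM were 210.1, 216 and 205.3 in the frankincense libraries, against 168.8, 168 and 173.2 in the vehicle libraries. All treated libraries were above all vehicle libraries by several times the replicate SD. CDK4 was 1.24-fold higher, with a log2 fold change of 0.31 ± 0.052 and an edgeR adjusted p of 0.00012, called under all 17 alternatives (0.26 to 0.38 from counts). In size this change exceeded that of 43.4% of the tested genes. On the log2(TPM + 1) scale it was larger, at 0.57 (limma adjusted p = 0.00016). CDK4 is a known target of MYC, whose mRNA was 68.5 ± 3.8 CPM with frankincense and 49.1 ± 2.0 CPM with vehicle, a log2 fold change of 0.48 ± 0.059 (edgeR adjusted p = 5.6e-06). MYC binds the E-box letters CACGTG, and the 250 bases before the RefSeq start of CDK4 are shown because they hold these letters 3 times, in capitals here (RefSeq, GRCh38.p14, chr12:57752311-57752560, minus strand, 5′ to 3′).
CDK4: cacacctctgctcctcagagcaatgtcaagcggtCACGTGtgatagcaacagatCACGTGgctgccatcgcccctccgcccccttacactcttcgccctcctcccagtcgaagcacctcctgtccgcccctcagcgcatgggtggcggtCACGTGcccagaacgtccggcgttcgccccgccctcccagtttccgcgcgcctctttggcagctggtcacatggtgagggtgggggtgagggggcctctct
The copies start 216, 196 and 101 bases before that start. CACGTG, which reads the same on both strands, was searched after the window had been read. It occurs at least once in 7.26% and at least 3 times in 0.094% of 35116 promoter windows running from 250 bases before to 50 after each start. CDK6 has it once, 30 bases after its start. A match is a description of the letters and not evidence of binding. Whether MYC had a part in the change of CDK4 was not tested.

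CDK6 (ENSG00000105810, chromosome 7, 92604921 to 92836594), the close relative of CDK4, supplied little of the pair's mRNA, 1.73% ± 0.065 of their summed TPM with frankincense and 2.16% ± 0.133 with vehicle. Its CPM were 28.31, 28.32 and 29.53 in the frankincense libraries, against 28.78, 28.42 and 27.53 in the vehicle libraries. These overlapped. In TPM they did not, at 3.51, 3.4 and 3.85 TPM with frankincense, against 3.14, 2.9 and 3.02 TPM with vehicle, a change of 0.19 on the log2(TPM + 1) scale (limma adjusted p = 0.14). From counts the log2 fold change was 0.02 ± 0.061 (edgeR adjusted p = 0.74), CDK6 was called under 0 of 17 alternatives, and its sign turned under 2 of them.

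CDK2 (ENSG00000123374, chromosome 12, 55966769 to 55972784) fell together with CCNE2, its partner. CDK2 was at 102.8, 112.3 and 107.7 CPM in the frankincense libraries, against 150.6, 152.1 and 149 CPM in the vehicle libraries. The groups were separate, with the treated libraries spread more widely than the vehicle ones. CDK2 was 1.40-fold lower, with a log2 fold change of -0.49 ± 0.050 and an edgeR adjusted p of 1e-06. It was called under all 17 alternatives, with adjusted p from 7.3e-16 to 0.029. On the log2(TPM + 1) scale the fall was smaller, at -0.23 (limma adjusted p = 0.029).

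CDC25A (ENSG00000164045, chromosome 3, 48157146 to 48188402), the activating phosphatase, rose while CCNE2 and CDK2 fell. Its CPM were 21.66, 19.41 and 21.17 in the frankincense libraries, against 15.99, 15.27 and 14.64 in the vehicle libraries. The lowest treated library was above the highest vehicle library. CDC25A was 1.36-fold higher, with a log2 fold change of 0.44 ± 0.076 and an edgeR adjusted p of 0.00015, and all 17 alternatives called it, with adjusted p from 3.2e-07 to 0.0021. On the log2(TPM + 1) scale the change was 0.65. Like CCNE2, it is known as an E2F target, and the 100 bases before its start are shown because they hold 1 of the searched E2F letter strings, in capitals (RefSeq, GRCh38.p14, chr3:48188418-48188517, minus strand, 5′ to 3′).
CDC25A: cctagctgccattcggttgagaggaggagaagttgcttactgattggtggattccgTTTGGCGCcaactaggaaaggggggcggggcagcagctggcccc
The string TTTGGCGC starts 44 bases before the start of CDC25A and is found in 0.652% of the 35116 windows on either strand. At least 1 of the E2F strings TTTCCCGC, TTTGGCGC, TTTCGCGC and TTTGCGCC is in 3.28% of them. Windows were matched for 6 of the 10 genes, CCND3, CCNE1, CDK4, CDK6, CDC25A and CCNG1. These 6 genes had 10 windows together, whereas the shares given are per window. CDC25A alone among them held one of the E2F strings. The strings TGACGTCA, of cAMP response elements, and TGATGCAA, of amino acid response elements, are in 1.85% and 0.866% of all windows and in 0 of those of the 6 genes. CCND1, CCND2, CCNE2 and CDK2 were not matched.

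CCNG1 (ENSG00000113328, chromosome 5, 163437569 to 163446151), cyclin G1, was at 99.39, 96.12 and 81.75 CPM in the frankincense libraries, against 107.5, 108.3 and 116.3 CPM in the vehicle libraries. Frankincense replicate 3 was the lowest value, and the groups did not overlap. CCNG1 was 1.20-fold lower, with a log2 fold change of -0.26 ± 0.068 (edgeR adjusted p = 0.0046), called under 14 of 17 alternatives. Without frankincense replicate 3 it was -0.17 (edgeR adjusted p = 0.0014). On the TPM scale the change was -0.03 (limma adjusted p = 0.77), and the groups overlapped.

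Ratios within a library do not depend on how libraries are scaled. TPM ratios do depend on the transcript lengths that RSEM assigned. Those of CCNE1 averaged 1422 bases with frankincense and 1715 bases with vehicle. The log2 TPM ratio of CDK4 to CDK6 was 5.83 ± 0.0546 with frankincense and 5.50 ± 0.0925 with vehicle (SD, n = 3). That of CCND1 to CCND3 was -6.08 ± 0.0327 with frankincense and -7.70 ± 0.835 with vehicle, where vehicle replicate 3 was the low value at -8.66. For both ratios the groups did not overlap and the exact two-sided permutation p was 0.1, the smallest that 3 against 3 libraries allow (0.2 adjusted over the 4 ratios). The ratio of CCNE1 to CCNE2 was -2.03 ± 0.297 with frankincense and -2.62 ± 0.439 with vehicle, with overlap and an exact permutation p of 0.2 (adjusted 0.267). For CCNE1 to CDK2 the ratio was -5.20 ± 0.201 with frankincense and -5.55 ± 0.456 with vehicle (exact permutation p = 0.3, adjusted 0.3). With this permutation test no ratio can pass 0.05 in this design.

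**Figure D3:**
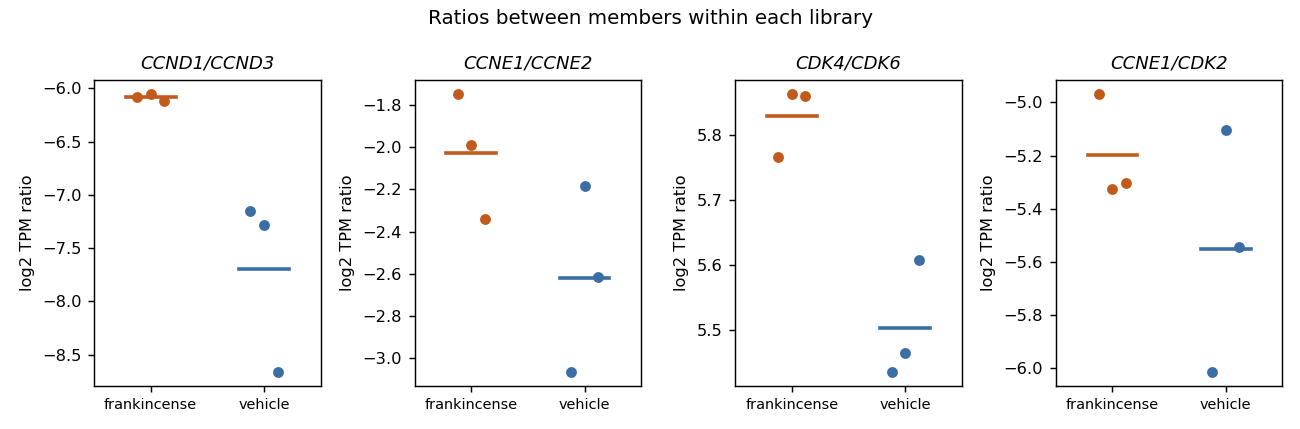
Log2 TPM ratio of 4 gene pairs in each library, frankincense left and vehicle right; points are libraries and lines are means of 3. CCND1/CCND3 and CDK4/CDK6 do not overlap between groups, at means of -6.08 and 5.83 with frankincense and -7.70 and 5.50 with vehicle, while CCNE1/CCNE2 and CCNE1/CDK2 overlap.

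Other genes of the G1 machinery were read from lists of textbook members, also chosen with earlier results known. They are given as counts of called genes. The shares of all tested genes called were 31.9% higher and 31% lower, 62.9% in all. On the TPM scale they were 44.2% higher and 14.9% lower. CDK inhibitors bind the members directly, and 2 of 7 were higher and 3 lower. CDKN1A, the p53-induced inhibitor p21, was at 367 ± 16 CPM with frankincense and 208 ± 13 CPM with vehicle, a log2 fold change of 0.82 ± 0.062. CDKN2C and CDKN2D, which bind CDK4 and CDK6, fell by 1.97 ± 0.059 and 1.18 ± 0.11 on the log2 scale. The change of CDKN1C was -0.90 ± 0.12 and that of CDKN2B 0.29 ± 0.068. CDKN2A, which encodes the CDK4 inhibitor p16, was abundant at 165 ± 24 CPM with frankincense and 186 ± 9.2 CPM with vehicle and was not called (edgeR adjusted p = 0.14). CDKN1B, the cyclin E-CDK2 inhibitor p27, was not called (-0.06 ± 0.052, edgeR adjusted p = 0.33). On the log2(TPM + 1) scale CDKN1B was called higher, at 0.18 (limma adjusted p = 0.037), but was at -0.0018 without mitochondrial genes.

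Among retinoblastoma and E2F proteins, 3 of 13 were higher and 5 lower (7 and 2 on the TPM scale, 5 and 5 without frankincense replicate 3). E2F1, the activating factor, was at 0.06 ± 0.053 (edgeR adjusted p = 0.30). On the log2(TPM + 1) scale E2F1 was called higher, at 0.30 (limma adjusted p = 0.0027), and was at 0.12 without mitochondrial genes. The repressor E2F7 rose by 1.01 ± 0.060 and its relative E2F8, also a repressor, fell by 1.18 ± 0.087 on the log2 scale. E2F5 and E2F4, partners of the retinoblastoma relatives, were at 0.50 ± 0.074 and 0.14 ± 0.048. The activator E2F2 and TFDP1, the dimer partner of E2F proteins, were at -0.73 ± 0.091 and -0.43 ± 0.062. Of 15 E2F-driven replication genes, 1 was higher and 13 lower, with a median log2 fold change of -0.33. On the TPM scale 4 of these were lower and 2 higher, and 8 were lower when mitochondrial genes were left out. CDC6, a replication licensing factor, was the riser at 1.57 ± 0.055, and RRM2, a ribonucleotide reductase subunit, PCNA, the polymerase clamp, and TK1, thymidine kinase, were at -1.07 ± 0.060, -0.95 ± 0.059 and -0.68 ± 0.050.

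Cyclins and regulators of the later phases were called in 10 of 10, 1 higher and 9 lower (median log2 fold change -0.65). On the TPM scale 1 was higher and 6 lower, and without frankincense replicate 3, 1 was higher and 8 lower. CCNF, CCNB2 and CCNB1 had the smallest adjusted p and fell by 1.25 ± 0.058, 0.98 ± 0.058 and 0.81 ± 0.054 on the log2 scale, and PKMYT1, an inhibitory kinase of CDK1, rose by 0.29 ± 0.063. In contrast, 8 of 12 other cyclins were higher and 0 lower, most of them cyclins of transcription kinases or with little known role in the cycle. CCNYL1, CCNJ and CCNI were at 0.97 ± 0.067, 0.86 ± 0.086 and 0.34 ± 0.050. Without vehicle replicate 1, 1 of these cyclins was lower. Among 15 other CDKs, 5 were higher and 6 lower (8 and 3 on the TPM scale), and without vehicle replicate 1 or 2 the number higher was 3. CDK20, CDK17 and CDK8 rose by 0.74 ± 0.064, 0.59 ± 0.064 and 0.31 ± 0.066, while CDK18, CDK5 and CDK14 were at -0.64 ± 0.077, -0.49 ± 0.072 and -0.47 ± 0.056.

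**Figure D4:**
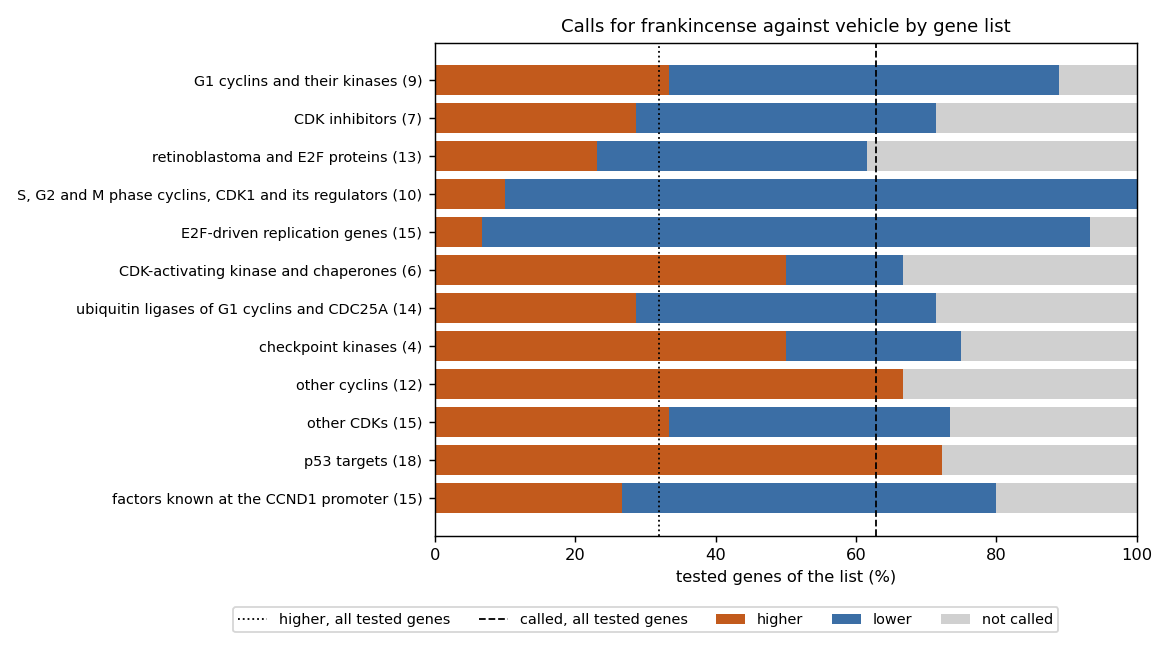
Percent of the tested genes of each list called higher, called lower or not called by edgeR, frankincense against vehicle, with the number tested in brackets. The dotted and dashed lines mark all tested genes, 31.9% called higher and 62.9% called in all; the G1 cyclins and their kinases had 3 higher and 5 lower of 9.

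The 3 subunits of the CDK-activating kinase, which phosphorylates CDK2, CDK4 and CDK6, all rose: MNAT1 by 0.72 ± 0.080, CCNH by 0.51 ± 0.071 and CDK7 by 0.24 ± 0.069 on the log2 scale. With the chaperones that fold CDK4, the list had 3 of 6 higher and 1 lower (5 and 0 on the TPM scale). HSP90AB1 was the lower one, at -0.18 ± 0.065 (edgeR adjusted p = 0.027), and leaving out any single library other than frankincense replicate 3 ended that call. The list of ubiquitin ligases that act on G1 cyclins and CDC25A held 14 genes, including associated proteins that are not ligases. Of these, 4 were higher and 6 lower (6 and 4 on the TPM scale). FBXW7, which targets cyclin E, rose by 0.57 ± 0.065, and FBXO4, reported to act on cyclin D1, by 0.85 ± 0.063. CKS1B, a cofactor of SKP2, was at 0.22 ± 0.053. SKP2, which targets p27, and the ring subunit RBX1 fell by 0.96 ± 0.051 and 0.96 ± 0.081, and CUL3 by 0.52 ± 0.051.

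Among checkpoint kinases, which act on CDC25A protein, 2 of 4 were higher and 1 lower: ATR at 0.51 ± 0.053, CHEK1 at 0.32 ± 0.058 and CHEK2 at -0.45 ± 0.059. Of 18 p53 targets other than CCNG1, 13 rose, 0 fell and the median log2 fold change was 0.50. CCNG1 itself was at -0.26 ± 0.068. On the log2(TPM + 1) scale 17 were higher and 0 lower, and CCNG1 was at -0.03 (limma adjusted p = 0.77). That scale without mitochondrial genes had 11 higher and 0 lower, and the count fit without frankincense replicate 3 had 15 and 0. SESN2, TIGAR and AEN were at 1.78 ± 0.070, 1.36 ± 0.092 and 1.01 ± 0.072, and SESN2 is also a target of the stress factor ATF4. Of 15 tested transcription factors known at the CCND1 promoter, 4 were higher and 8 lower (in TPM 7 and 4). ETS2 and MYC rose by 0.66 ± 0.052 and 0.48 ± 0.059, and the immediate early factors JUNB and EGR1 and the general factor SP1 fell by 1.84 ± 0.098, 1.20 ± 0.082 and 0.61 ± 0.051 on the log2 scale. ESR1, the oestrogen receptor, was at 1.20 ± 0.31 on a level of 1.23 ± 0.23 CPM with frankincense and 0.525 ± 0.18 CPM with vehicle. Like CCND1 it passed the filter through the frankincense libraries, since vehicle replicate 1 was at 0.3162 CPM. ESR1 is counted among the 4 higher and among the 7 in TPM.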

How the data were processed

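RNA of 12Z cells was sequenced in 6 libraries from 1.5 ug of total RNA each, with a kit not stated to keep strand. The submitters' processing notes name GRCh38, STAR (no version) and RSEM 1.3.1, and no annotation or read filter is given in the sources used here. The deposited expected counts, per the file headers, are estimated reads per gene, their TPM and FPKM are length-corrected, and the deposited length is an abundance-weighted mean over transcripts. Of 60616 identifiers, the name table gave 60419 a symbol and GENCODE 29 another 178, the source of gene coordinates.

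Counts were rounded and, in R 4.3.3, fitted by edgeR 4.0.16 (filterByExpr, TMM factors, robust glmQLFit and glmQLFTest, two-sided), with Benjamini-Hochberg adjustment over 16719 genes. The SE is the absolute log2 fold change over the square root of F. TPM was tested with limma 3.58.1 on log2(TPM + 1), which understates changes of low genes. FPKM served only for ratios. DESeq2 1.42.0, limma-voom, other scalings, filters and pseudocounts, leaving out each library and a replicate block were alternatives.

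The members and lists were chosen with earlier results of these data known. Named genes are all members, all CDK inhibitors, E2F1, up to 3 called genes per list and direction with the smallest adjusted p, and the 3 genes nearest in log2(CPM + 0.5) to CCND1, which was also the largest rise, and to CCNE2, the largest fall.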

Additional observations from a re-analysis of the deposited data

How the results depend on the processing

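CCND3, CCNE2, CDK2, CDK4 and CDC25A kept their direction and their call under all 17 alternatives, and CDK6 was called under none of the 17. Genes called lower numbered 2491 with limma on log2(TPM + 1) and 2490 on log2(TPM + 0.1), against 5177 from counts. Members called lower numbered 3 under both of these and under log2(TPM + 1) without mitochondrial genes, against 5, and the calls lost were those of CCNE1 and CCNG1. CCNE1 had the opposite sign under log2(TPM + 1), at 0.077, and log2(TPM + 0.1), at 0.114. The cause of these differences was not tested. Leaving out a library gave 4740 to 5690 genes higher and 4637 to 5341 lower, and 2 to 3 members higher and 4 to 5 lower. Of 374 list counts, 337 stayed within 1.5 times, and 22 of the 37 others were on a TPM scale. Same-numbered libraries correlated at 0.064, 0.11 and 0.042 in their deviations from the group means, each best with its own number. Frankincense replicate 3 was nearly level with vehicle replicate 1, at 0.04. This is at most a weak hint from the data and not the design. With the replicate block, 5347 genes were higher and 5244 lower, with 3 and 5 members. Depth limits CCND2, with 0 counts, and CCND1, with 7.56 to 27.26.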
